A study of Mus musculus with 34 samples.

Results

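The genes described here are 8 regulators, receptors, enzymes and membrane proteins of the red cell lineage, *Gata1*, *Klf1*, *Nfe2*, *Epor*, *Tfrc*, *Alas2*, *Slc4a1* and *Ahsp*. They were taken by gene symbol from the deposited mRNA-seq table by a rule that sets no threshold on a measured value. Of the 22040 genes in the table, 7 were members of this set, and *Ahsp* was not analysed here. All 7 passed the filter on low values.

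The RNA came from limb buds of E11.5 mouse embryos, the stage at which the limb bud is still a paddle of mesenchyme under ectoderm. Libraries of 3 wild type (WT) embryo samples were compared with those of 3 conditional knockout (CKO) samples, *Prrx1-Cre;Hnrnpk* fl/fl, in which exons of *Hnrnpk*, a gene for an RNA- and DNA-binding protein, are flanked by loxP sites. The labels give the controls as *Hnrnpk* WT, and whether these carried Cre or floxed alleles is not stated. *Prrx1-Cre* is a Cre recombinase driven by a *Prrx1* enhancer in limb bud mesenchyme and calvarium, and the study describes it as incomplete in the hindlimb. Embryos of both sexes were used without being told apart, and the replicates were described as biological, although neither the labels nor the methods say how many embryos made up each one. The values are FPKM, the fragments on a gene scaled to the length of its exons and to the size of the library.

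Red cells of the mouse embryo first come from the yolk sac. At the stage sampled they circulate as nucleated primitive erythroid cells, so a whole limb bud holds their RNA beside that of its own mesenchyme. Gata1 binds GATA motifs and turns on most of the erythroid genes, Klf1 binds CACCC boxes in globin and membrane gene promoters, and Nfe2 is the large subunit of a heterodimer that binds the globin control regions. The erythropoietin receptor, Epor, carries the survival signal of red cell precursors, and the transferrin receptor, Tfrc, brings in the iron. Alas2 makes the first intermediate of heme in erythroid cells, and Slc4a1, band 3, is the anion exchanger that anchors the red cell membrane to its skeleton.

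Short sequences of some of these genes bear on what is known of their control. The first are the bases upstream of the start site of 4 of the genes, taken from the RefSeq promoter table (GRCm38.p6). They are shown because a GATA or CACCC motif lies in each. Each window is the 150 bases nearest the RefSeq start that lie in no GENCODE exon, read 5′ to 3′ along the gene. For *Alas2* and *Klf1* it ends 42 and 54 bases before the start. Capitals mark the matches on either strand to the 4 motifs named after the sequences.
*Alas2*, chrX:150547225-150547374, plus strand: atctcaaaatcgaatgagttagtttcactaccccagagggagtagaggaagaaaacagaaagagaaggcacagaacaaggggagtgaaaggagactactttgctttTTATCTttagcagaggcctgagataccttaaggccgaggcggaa
*Klf1*, chr8:84901778-84901927, plus strand: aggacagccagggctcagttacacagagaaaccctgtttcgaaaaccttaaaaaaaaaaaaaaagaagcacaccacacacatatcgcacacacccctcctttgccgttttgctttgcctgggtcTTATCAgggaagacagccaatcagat
*Gata1*, chrX:7967911-7968060, minus strand: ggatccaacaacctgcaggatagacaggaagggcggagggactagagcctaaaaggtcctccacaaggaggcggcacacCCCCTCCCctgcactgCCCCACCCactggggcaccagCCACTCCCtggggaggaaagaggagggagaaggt
*Epor*, chr9:21963577-21963726, minus strand: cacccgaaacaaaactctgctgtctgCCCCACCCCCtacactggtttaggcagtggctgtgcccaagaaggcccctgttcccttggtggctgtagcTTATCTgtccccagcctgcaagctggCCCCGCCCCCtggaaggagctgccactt

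Over the 250 bases before the start, AGATAA was found in *Alas2* and *Epor* among the 5 members with an entry (these 4 and *Tfrc*), and in 9.99% of the 32851 promoters of the table. TGATAA was found in *Klf1* and in 7.94% of all promoters. CCNCNCCC, a loose form of the CACCC box, was found in *Alas2*, *Epor*, *Gata1* and *Tfrc*, and in 45.9% of all promoters. The *Alas2* matches begin between 42 and 26 bases before the start, past the end of its printed window. TGAGTCA, part of the site of the Nfe2 heterodimer, was found in none of the 5 and in 4.46% of all promoters. Each is a match of letters in this window, and no binding was measured. All motifs were searched on both strands. The GATA motifs differ in their first letter, so they never match the same bases on 1 strand, and matches to the CACCC form may overlap each other.

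The second kind are the iron-responsive elements of *Alas2* and *Tfrc*, hairpins with the loop CAGTGN that iron regulatory proteins bind when iron is low. They are shown because they are the part of both messages through which iron sets heme synthesis and iron uptake, by translation in the first and by stability of the RNA in the second. A search of the GENCODE vM21 transcripts (GRCm38) for a bulged C, a paired stem of 5 bases and this loop found 1 such site in the 5′ UTR of *Alas2*, which is spliced together from chrX:150547458-150547485 and the first base of the next exon, and 4 in the 3′ UTR of *Tfrc* on chromosome 16. The search took A, C or T as the last base of the loop. Elements with another loop or an unpaired base in the stem are missed, so these are numbers of matches and may be too low. The loop is in capitals, and the sites are named by their start.
*Alas2*, chrX:150547458, plus strand: ttggttcgtcctCAGTGCagggcaacagg
*Tfrc*, chr16:32631219-32631247, plus strand: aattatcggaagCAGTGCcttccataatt
*Tfrc*, chr16:32631598-32631626, plus strand: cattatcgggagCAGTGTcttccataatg
*Tfrc*, chr16:32631663-32631691, plus strand: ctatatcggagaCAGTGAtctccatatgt
*Tfrc*, chr16:32631710-32631738, plus strand: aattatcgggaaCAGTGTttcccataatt

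The 6 libraries held between 17140884 and 24624438 reads on the listed genes, as recovered from the FPKM. *Hnrnpk*, the targeted gene, was between 185 and 195 FPKM in WT and between 127 and 142 in CKO, with no overlap (log2 fold change −0.50, SE 0.13, adjusted *p* value 0.334 by limma). RNA of *Hnrnpk* was thus still present in every CKO library. The FPKM is of the whole gene, of which only some exons are floxed, and the limb bud also holds cells other than the mesenchyme that the Cre targets. From western blots and qPCR of E11.5 limb buds, the study reports that the ablation was efficient. The exons of *Hnrnpk* share 330 bases with *Rmi1* on the other strand. The source of the remaining RNA was not tested. The summed FPKM of 10 limb mesenchyme markers was between 355 and 376 in WT and between 319 and 342 in CKO, and none of these markers was at 0, so the labelled tissue was there in all libraries. The summed FPKM of the 10 globin genes was 37563, 63027 and 63727 in the WT libraries numbered 1, 2 and 3. In the CKO libraries of the same numbers it was 30654, 142397 and 85138. By summed globins, CKO replicates 2 and 3 were thus the highest libraries, and both replicates 1 were the lowest. CKO replicate 3 lay closer to WT replicates 2 and 3 than to CKO replicate 2. In bulk tissue, fewer erythroid cells and less RNA per cell cannot be told apart.

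For the question whether loss of *Hnrnpk* in the limb bud mesenchyme went with a change of the erythroid program, all 7 genes had a higher mean in CKO than in WT, by 0.06 to 0.51 on the log2 scale, except that *Epor* was lower, by −0.043, once the libraries were rescaled without the globins, and none passed the test. That rescaling moved the median of all genes to −0.10. The main test was limma on log2(FPKM + 0.1), with Benjamini-Hochberg adjustment over 12305 genes. It called 0 of the 7 genes at an adjusted *p* value of 0.05, and 0.065% of all genes tested. Limma voom on reads recovered from the FPKM also called 0. None had an unadjusted *p* value under 0.05 in either fit, and none passed the rule the study uses for differential genes, a 2-fold change with an unadjusted *p* value under 0.05, which 0.666% of all genes passed. The CKO values overlapped the WT values in all 7 genes, while 14.5% of all genes had no overlap. These tests do not show that the genes were unchanged, since the standard errors reach 0.34 on the log2 scale.

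**Figure D1:**
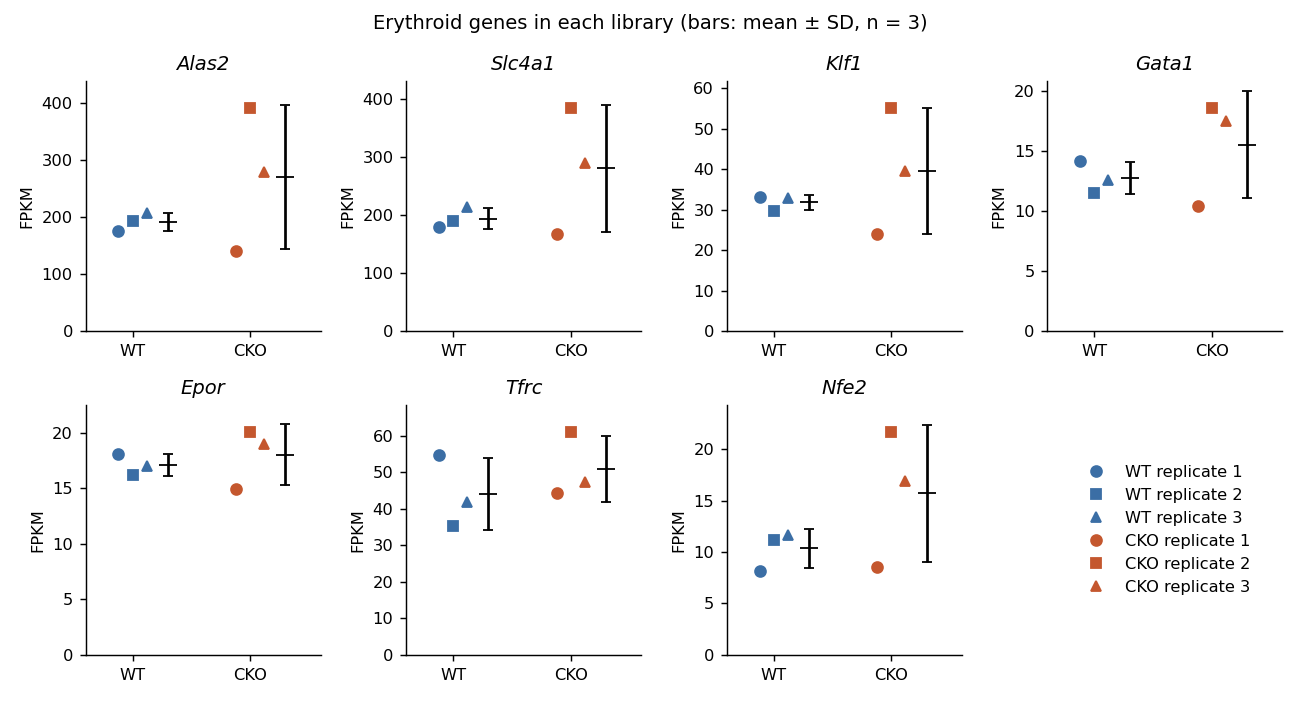
FPKM of the 7 erythroid genes in each library, on a linear axis from 0, with WT in blue, CKO in orange, 1 symbol shape per replicate number, and black bars for the mean ± SD (n = 3). CKO replicate 2 is the highest library for all 7 genes, and CKO replicate 1 is the lowest for *Alas2*, *Slc4a1*, *Klf1*, *Gata1* and *Epor*.

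*Gata1* (ENSMUSG00000031162, chrX:7959260-7978071), the master regulator of the lineage, was 14.2, 11.5 and 12.6 FPKM in WT replicates 1, 2 and 3. In CKO replicates 1, 2 and 3 it was 10.4, 18.6 and 17.5 FPKM. CKO replicate 1 lay under all WT libraries and CKO replicates 2 and 3 above all of them. The means were 12.8 ± 1.35 FPKM in WT and 15.5 ± 4.45 in CKO (SD, n = 3), a log2 fold change of 0.24 with an SE of 0.22 and an adjusted *p* value of 0.843 by limma. Leaving out CKO replicate 2 or 3 gave 0.087 or 0.13, and leaving out CKO replicate 1 gave 0.50. Between 459 and 1019 reads lay behind each value.

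*Klf1* (ENSMUSG00000054191, chr8:84901928-84905291), which carries the erythroid program past the progenitor stage, was 33.0, 29.7 and 32.9 FPKM in the WT libraries. It was 24.0, 55.2 and 39.6 FPKM in CKO replicates 1, 2 and 3. The WT libraries lay close together, and the CKO libraries lay on both sides of them. The means were 31.9 ± 1.87 and 39.6 ± 15.6 FPKM (SD, n = 3), and the log2 fold change was 0.23 with an SE of 0.27 and an adjusted *p* value of 0.872 by limma. Without CKO replicate 2 it was −0.045, and without CKO replicate 1 it was 0.55.

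*Nfe2* (ENSMUSG00000058794, chr15:103248212-103258403) was 8.19, 11.2 and 11.7 FPKM in WT. It was 8.52, 21.7 and 16.9 FPKM in CKO. Here both replicates 1 were low, WT replicate 1 lowest of all, and CKO replicates 2 and 3 lay above every WT library. The means were 10.4 ± 1.89 and 15.7 ± 6.67 FPKM (SD, n = 3). The log2 fold change of 0.51 (SE 0.33, adjusted *p* value 0.742 by limma) was the largest of the 7 genes, and it was 0.23 without CKO replicate 2 and 0.90 without CKO replicate 1. With the replicate number as a block, the adjusted *p* value was 0.0798, the lowest of the 7 in that fit. It was called when limma voom was run on the recovered reads with the block, the 1 call among the 7 genes there, where 5.3% of all genes were called.

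*Epor* (ENSMUSG00000006235, chr9:21958897-21963506) varied least of the 7 genes. It was 18.1, 16.2 and 17.0 FPKM in WT. In CKO it was 14.9, 20.1 and 19.0 FPKM. The order of the libraries was like that of *Gata1*, with CKO replicate 1 under and CKO replicates 2 and 3 above all WT libraries, within a narrower range. The means were 17.1 ± 0.976 and 18.0 ± 2.74 FPKM (SD, n = 3). The log2 fold change was 0.06 with an SE of 0.14 and an adjusted *p* value of 0.935 by limma, and it was −0.043 after rescaling the libraries without the globins. With 1 library left out it was −0.021 (CKO replicate 2), 0.019 (CKO replicate 3), 0.024 (WT replicate 2), 0.11 (WT replicate 1) or 0.19 (CKO replicate 1).

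*Tfrc* (ENSMUSG00000022797, chr16:32608920-32632794), which dividing cells of every type also use, was 54.8, 35.4 and 41.9 FPKM in WT. It was 44.4, 61.1 and 47.3 FPKM in CKO. Its order of libraries differed from that of the other genes, since WT replicate 1 was the second highest library and WT replicate 2 the lowest. The means were 44.0 ± 9.88 and 50.9 ± 8.96 FPKM (SD, n = 3), a log2 fold change of 0.22 with an SE of 0.20 and an adjusted *p* value of 0.837 by limma. Leaving out WT replicate 2 gave 0.074, leaving out CKO replicate 2 gave 0.081, and leaving out WT replicate 1 gave 0.39.

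*Alas2* (ENSMUSG00000025270, chrX:150547375-150570638) was 175, 193 and 207 FPKM in WT. In CKO replicates 1, 2 and 3 it was 140, 391 and 279 FPKM. CKO replicate 2 had 2.80 times the level of CKO replicate 1, the widest range of the 7 genes, and the WT libraries lay between them. The means were 192 ± 15.6 and 270 ± 126 FPKM (SD, n = 3), a log2 fold change of 0.37 with an SE of 0.34 and an adjusted *p* value of 0.838 by limma. It was 0.046 without CKO replicate 2 and 0.79 without CKO replicate 1. The exons of *Alas2* share 311 bases with *Apex2* and 61 with *Mir3620* on the other strand, and the sources used here do not give the strand setting of the counting.

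*Slc4a1* (ENSMUSG00000006574, chr11:102348824-102366203) was 179, 189 and 213 FPKM in WT. It was 167, 384 and 290 FPKM in CKO replicates 1, 2 and 3. CKO replicate 1 lay just under the WT libraries, and CKO replicates 2 and 3 lay well above them. The means were 194 ± 17.6 and 280 ± 109 FPKM (SD, n = 3), and the log2 fold change was 0.45 with an SE of 0.29 and an adjusted *p* value of 0.746 by limma. Leaving out CKO replicate 2 gave 0.19, and leaving out CKO replicate 1 gave 0.79.

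FPKM is scaled to length, so the levels of the genes can be set side by side. *Slc4a1* and *Alas2* were highest, with WT ranges that overlapped, followed by *Tfrc*, *Klf1*, *Epor*, *Gata1* and *Nfe2*. In WT, *Tfrc* and *Klf1*, *Klf1* and *Epor*, and *Epor* and *Gata1* did not overlap, whereas *Gata1* and *Nfe2* did. In CKO, *Nfe2* had a slightly higher mean than *Gata1*, 15.7 against 15.5 FPKM, well within their spread.

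**Figure D2:**
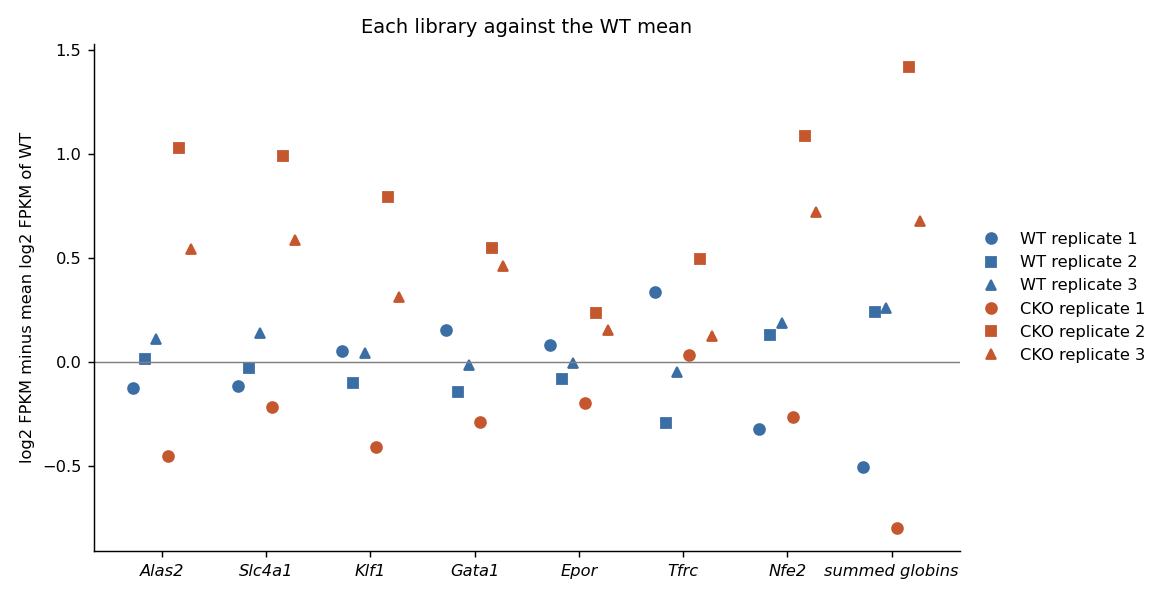
Log2 FPKM of each gene, and of the 10 globins summed, in each library minus the mean of the 3 WT libraries (0, grey line), with WT in blue, CKO in orange and 1 symbol shape per replicate number. CKO replicate 2 lies above the WT mean by between 0.23 log2 units for *Epor* and 1.09 for *Nfe2*, and by 1.42 for the summed globins, and CKO replicate 1 lies under it for each of the genes except *Tfrc*.

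The difference between CKO and WT varied with the replicate number. In 5 of the 7 genes CKO replicate 1 lay under and CKO replicates 2 and 3 above all 3 WT libraries, an order held by 7.96% of all genes. Within the libraries numbered 1, the CKO library was higher than the WT library for 1 of 7 genes, with a median log2 difference of −0.30. For the number 2 it was higher for 7 of 7, with a median of 0.89, and for the number 3 for 7 of 7, with a median of 0.43. The medians over all genes tested were −0.014, 0.0014 and 0.0014 for the 3 numbers. The fit with the replicate number as a block called 0 of the 7 genes and 2.81% of all genes. In it 2 of the 7, *Slc4a1* and *Nfe2*, had an unadjusted *p* value under 0.05 by limma, against 2263 of all 12305 genes.

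**Figure D3:**
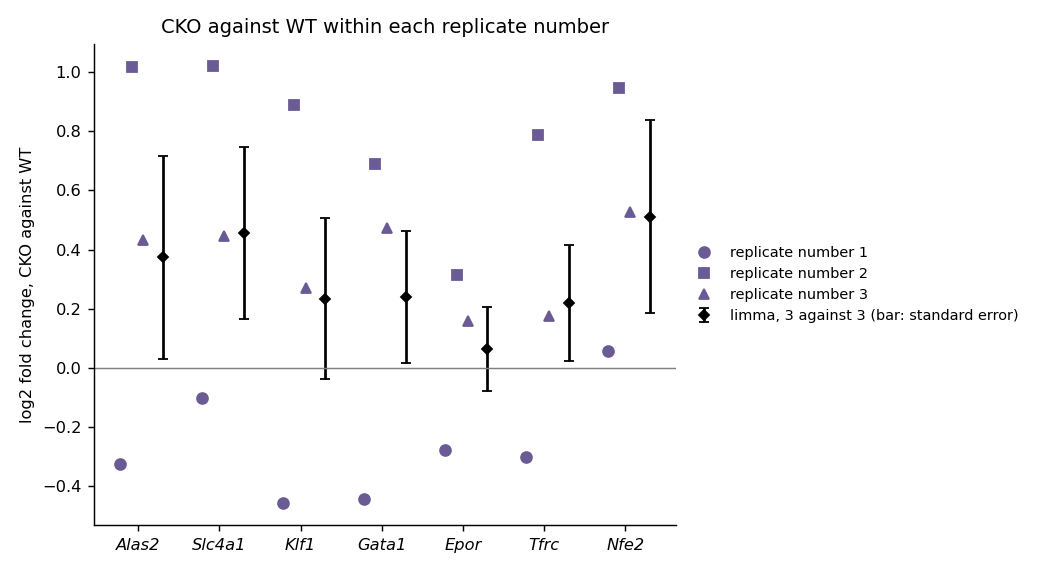
Log2 fold change of CKO against WT for each gene, within the libraries of each replicate number (violet symbols) and by limma over 3 against 3 libraries (black diamonds, bar for 1 standard error). Number 2 is the highest of the 3 for each gene, with 1.02 for *Alas2* and *Slc4a1*, and number 1 is under 0 for all genes except *Nfe2*, at 0.06.

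The spread within groups was wide for these genes. The SD within groups on the log2 scale was between 0.172 for *Epor* and 0.541 for *Alas2*, against a median of 0.208 over all genes tested, and 6 of the 7 genes lay above that median. In 3 of the 7 it was above 0.440, the 90th percentile of all genes. The SD among CKO libraries was larger than that among WT libraries in 6 of 7 genes, *Tfrc* being the exception, and in 62.8% of all genes. When CKO replicate 1 was left out, 5 of the 7 genes had an unadjusted *p* value under 0.05 by limma, against 2416 of all 12311 genes tested. None of the 7 was called, with adjusted *p* values by limma up to 0.416. In replicates 2 and 3 alone, a fit added after the values were seen, 6 of the 7 genes were called higher in CKO. Of all 12319 genes tested there, 877 were called higher, and 15.1% were called in either direction. This fit kept the numbers in which 7 of 7 genes were higher in CKO and left out the number in which 1 was. The direction of its calls was therefore set by the choice of libraries, and they give no separate support. In that fit the log2 fold change was 0.72 for *Alas2*, 0.73 for *Slc4a1*, 0.58 for *Klf1*, 0.58 for *Gata1*, 0.48 for *Tfrc* and 0.74 for *Nfe2*. For *Epor* it was 0.24 with an adjusted *p* value of 0.212 by limma. What differs between the libraries of number 1 and the others was not tested.

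The genes moved together from library to library. The mean Pearson correlation over their 21 pairs was 0.82 across the 6 libraries, from 0.38 between *Tfrc* and *Nfe2* to 0.985 between *Alas2* and *Slc4a1*. Without *Tfrc* the mean was 0.913. These are descriptions over 6 points that share library, depth and the contrast itself, and on the mean log2 level of the members CKO replicates 2 and 1 lie farthest from the mean of the libraries, at 0.59 and −0.40. *Tfrc* had a correlation of 0.585 with the mean of the other members, whereas the remaining genes had between 0.896 and 0.979.

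Of the 12305 genes tested, 154 (1.25%) had a correlation above 0.95 with the mean log2 level of the members. Among the 10 most alike were *Pak1ip1* (0.994), *Sgce* (0.991), *Rhag* (0.990), *Slc39a8* (0.989), *Pmm1* (0.988), *1300017J02Rik* (0.987), *Tuba4a* (0.987), *Eif2s1* (0.987) and *Slc39a9* (0.987). *Rhag*, the Rh-associated glycoprotein of the red cell membrane, is the 1 gene among them that stands in a list described below. *Rhag* was 21.4, 18.6 and 21.8 FPKM in WT and 18.2, 40.1 and 30.7 FPKM in CKO, again with CKO replicate 1 lowest and CKO replicates 2 and 3 highest. *Slc39a9* followed the same order within a range of 0.15 on the log2 scale, so a high correlation did not require a wide range.

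The 7 genes were next set against the globins of the same library, the main product of these cells. Per 1000 globin FPKM, *Alas2* was at 4.67, 3.07 and 3.24 FPKM in WT and at 4.56, 2.75 and 3.28 FPKM in CKO, in the order of the replicate numbers. *Epor* was at 0.482, 0.256 and 0.267 in WT and at 0.486, 0.141 and 0.223 in CKO. For all 7 genes this ratio was highest in a library numbered 1 and lowest in CKO replicate 2, where the globins were highest. The ratio differed between CKO and WT by −0.37 (*Epor*) to 0.08 (*Nfe2*) on the log2 scale, with overlap in every gene. Exact permutation *p* values (two-sided) were between 0.5 and 0.9, all 0.9 after adjustment over the 7 genes, and 3 against 3 libraries cannot give less than 0.1. The globins had a 4.65-fold range over the 6 libraries, against 1.35-fold for *Epor* and 2.80-fold for *Alas2*.

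**Figure D4:**
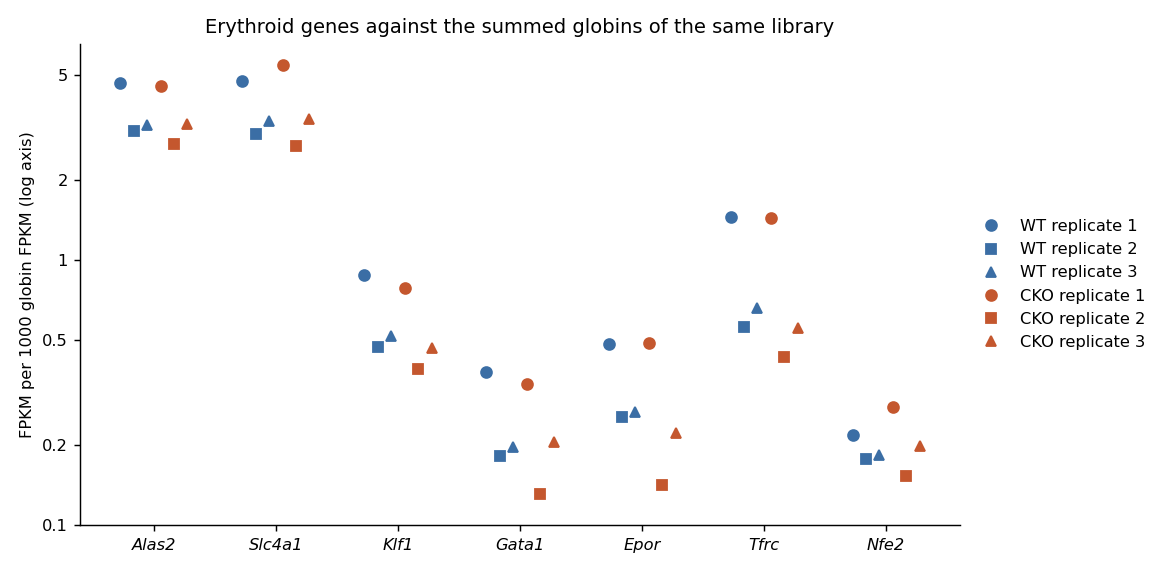
FPKM of each gene per 1000 FPKM of the 10 globins summed in the same library, on a log axis, with WT in blue, CKO in orange and 1 symbol shape per replicate number. The libraries numbered 1 (circles) are the 2 highest for every gene, such as 1.46 in WT and 1.45 in CKO for *Tfrc*, and CKO replicate 2 (orange square) is the lowest.

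Measured against the mean log2 level of the other members, no gene stood out between the groups. The difference between CKO and WT was lowest for *Epor*, −0.28, and highest for *Nfe2*, 0.25 on the log2 scale. The groups overlapped for each gene, and the exact permutation *p* values were between 0.3 and 0.7, all 0.7 after adjustment over the 7 genes.

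The other genes of the erythroid program, in 7 lists, are given as counts beside a median log2 fold change of 0.0048 over all genes tested. Their levels are of the whole limb bud, and the share of each gene that comes from red cells was not tested. Of the 74 genes tested in these lists, limma called 0 with or without the replicate block, and 4 had an unadjusted *p* value under 0.05 without it. With the block that number was 23, against 2263 of all 12305 genes. Voom on the recovered reads also called 0, and with the block it called 4, near the 5.3% of all genes called there, namely *Ank1*, *Sptb*, *Hba-a2* and *Hbb-bt*, of which the last pair have near-identical copies that share reads. Of the 11 genes of heme synthesis and its mitochondrial transport (*Alas2* aside), 10 had a higher mean log2 level in CKO, with a median of 0.28 (9 higher after rescaling without the globins), and 6 had CKO replicate 1 under and CKO replicates 2 and 3 above all WT libraries. *Slc25a37*, mitoferrin, which carries iron into the mitochondrion, was 106 ± 12.5 FPKM in WT and 140 ± 25.4 in CKO (SD, n = 3). *Tmem14c*, which moves porphyrin precursors across the inner membrane, was 110 ± 3.43 and 128 ± 42.5, and *Fech*, which inserts the iron into heme, was 75.6 ± 5.43 and 103 ± 34.5 FPKM.

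Of 15 genes of the red cell membrane and its skeleton (*Slc4a1* aside), 14 were tested, and all 14 were higher in CKO on average, with a median of 0.40 on the log2 scale (13 higher after rescaling without the globins). In 2 of them, *Sptb* and *Ank1*, CKO and WT did not overlap, near the share of 14.5% over all genes. *Rhd*, the Rh antigen of the red cell surface, was 43.2 ± 8.76 FPKM in WT and 67.3 ± 38.5 in CKO (SD, n = 3), and *Kel*, a blood group protease, was 38.4 ± 6.41 and 45.5 ± 9.18 FPKM. *Aqp1* was under the filter.

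Of 10 red cell enzymes and maturation genes, 10 had a higher mean in CKO, with a median of 0.23 (9 higher after rescaling without the globins), and 9 had the order with CKO replicate 1 lowest and CKO replicates 2 and 3 above WT. *Prdx2*, a peroxidase of the red cell, was 269 ± 47.9 FPKM in WT and 331 ± 140 in CKO (SD, n = 3). *Car2*, carbonic anhydrase, was 194 ± 24.8 and 284 ± 143, and *Cat*, catalase, was 46.8 ± 4.27 and 52.2 ± 10.4 FPKM. Of the 10 globins, 10 had a higher mean, with a median of 0.42 (9 higher after rescaling without the globins and 7 after quantile normalization). *Hbb-y*, an embryonic beta-like globin and the highest of them, had a log2 fold change of 0.51 with an SE of 0.82.

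Of 13 transcription factors that work beside Gata1 and Klf1, 8 were higher and 5 lower in CKO, with a median of 0.02 (6 higher and −0.08 after rescaling without the globins, which is 0.02 above the median of all genes there), and in none of the 13 were CKO replicate 1 lowest and CKO replicates 2 and 3 above WT. *Ldb1*, which bridges distant Gata1 sites, was 77.2 ± 7.28 FPKM in WT and 78.0 ± 14.1 in CKO (SD, n = 3). *Tal1* was 19.0 ± 2.42 and 24.4 ± 5.44, and *Lmo2* was 16.1 ± 0.696 and 19.5 ± 2.96 FPKM, both partners in the same complex. Several of these factors, such as *Ldb1*, are also made by mesenchyme, and that share was not tested.

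Of 8 genes that signal with or feed back on Epor, 7 were tested, of which 3 were higher and 4 lower, with a median of −0.0002 (5 higher after median-ratio scaling, 4 after quantile normalization and 2 after rescaling without the globins). *Jak2*, the kinase bound to Epor, was 12.3 ± 1.10 FPKM in WT and 12.1 ± 0.672 in CKO (SD, n = 3). *Socs3*, its feedback inhibitor, was 10.1 ± 0.674 and 10.5 ± 2.41, and *Stat5b*, its transcription factor, was 6.75 ± 0.620 and 5.78 ± 0.259 FPKM without overlap. In all, 2 of the 7 genes tested did not overlap, against 14.5% of all genes. *Epo*, the ligand, was under the filter. Of 11 iron handling genes (*Tfrc* aside), 9 were tested, with 7 higher, 2 lower and a median of 0.21 (6 higher after quantile normalization). *Fth1* and *Ftl1*, the ferritin chains, were 825 ± 46.5 against 1097 ± 294 and 615 ± 43.4 against 721 ± 146 FPKM. *Ireb2*, an iron regulatory protein, was 21.8 ± 2.51 against 24.4 ± 1.14 FPKM. These genes overlapped between the groups. *Aco1*, 1 of the 2 lower genes of this list, went the other way, with 16.6 ± 0.601 against 13.0 ± 0.843 FPKM. It was the 1 gene of the 9 tested without overlap, against 14.5% of all genes.

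**Figure D5:**
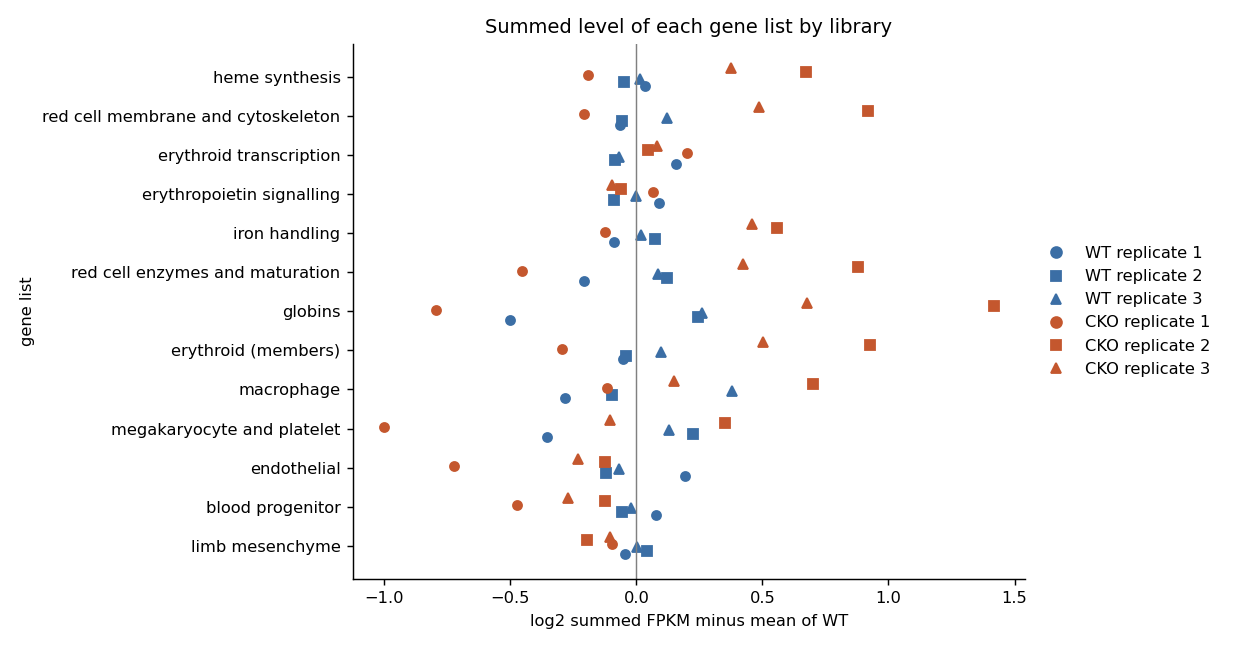
Log2 of the summed FPKM of each gene list in each library minus the mean of the 3 WT libraries (0, grey line), with WT in blue, CKO in orange and 1 symbol shape per replicate number. CKO replicate 2 (orange square) is the highest library for heme synthesis, membrane, iron, red cell enzymes, globins and the 7 erythroid genes. It is also the highest for the macrophage and megakaryocyte markers. All 3 CKO libraries lie under all WT libraries for the endothelial, blood progenitor and limb mesenchyme markers. For the endothelial sum the gap is thin, 32.04 FPKM in CKO replicate 2 against 32.05 in WT replicate 2. Of the single markers tested in these lists, 2 of 10, 2 of 6 and 1 of 10 did not overlap, against 14.5% of all genes.

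Markers of the other cells that a limb bud could hold were read beside these genes, and their part in the result was not tested. The 10 macrophage markers (9 tested, 8 higher and 1 lower, 7 higher after rescaling without the globins, median 0.24) summed to between 18.3 and 29.0 FPKM in WT and between 20.5 and 36.2 in CKO, the highest being *C1qb* and *Csf1r*. The 9 megakaryocyte and platelet markers, a lineage that also uses Gata1 and Nfe2, had 1 higher and 7 lower of 8 tested (0 higher after rescaling without the globins), with a median of −0.32. Of these 8, 4 did not overlap, against 14.5% of all genes. Those 4 had WT means of at most 3.05 FPKM, and *Pf4* and *Ppbp*, the highest of the list, overlapped. Without overlap were 0 of 9 macrophage, 2 of 10 endothelial, 2 of 6 blood progenitor and 1 of 10 limb mesenchyme markers tested. The sum of the megakaryocyte and platelet markers, led by *Pf4* and *Ppbp*, was between 21.3 and 31.8 FPKM in WT and between 13.6 and 34.7 in CKO. It was lowest in CKO replicate 1 and highest in CKO replicate 2.

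The 10 endothelial markers were lower in CKO in 10 of 10 (9 after quantile normalization), with a median of −0.31, and summed to between 32.1 and 39.8 FPKM in WT and between 21.1 and 32.0 in CKO, led by *Cdh5* and *Pecam1*. The 7 blood progenitor markers had 6 tested and 6 lower, with a median of −0.28, and summed to between 10.7 and 11.7 FPKM in WT and between 7.99 and 10.2 in CKO, led by *Cd34* and *Kit*. The limb mesenchyme markers, led by *Twist1* and *Prrx1*, had 1 higher and 9 lower of 10 (0 higher after quantile normalization or rescaling without the globins), with a median of −0.16. Of the 43 genes tested in these 5 lists, limma called 0 with or without the block, with 4 at an unadjusted *p* value under 0.05 without it and 10 with it, and voom with the block called 2, *Erg* and *Tie1*, while it called 5.3% of all genes. No listed marker was at 0 in all libraries.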

How the data were processed

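Libraries were made from limb bud RNA with a stranded mRNA kit. The authors deposited 1 table of FPKM per gene and library, and nothing else was used. The submitters' processing notes list cutadapt 2.5, HISAT2 2.1.0, Bowtie2 2.11.1, featureCounts 1.6.3 and MACS2 2.1.2 with mm10 for the whole series, without their roles, and the strand setting is not given in the sources used here. Samples of the other assays of the series were not analysed here.

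Of the gene identifiers, 99.5% were found in GENCODE vM21 (GRCm38). FPKM times merged exon length gave whole reads, within 0.1 reads, for between 94.2% and 94.7% of the low values per library. The library sizes by which the FPKM were scaled lay between 18026056 and 23935510. The reads on listed genes were 1.11 times this size in CKO replicate 2 and 1.03 times in CKO replicate 3, so they exceeded it there. In the other libraries they were 0.947 to 0.968 times the size. The reason was not tested, and the voom fits used the same sizes.

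Genes whose FPKM averaged 0.5 or more were tested by limma 3.58.1 in R 4.3.3 (eBayes with trend) on log2(FPKM + 0.1), 3 CKO against 3 WT libraries, with Benjamini-Hochberg adjustment over 12305 genes. Fold changes on this scale understate those of low genes. Log2 ratios to the globins, and log2 levels against the other members, were compared between groups by exact permutation of the difference in means. *P* values measure the spread between these samples. Deviations from group means correlated across genes by 0.64, 0.44 and 0.27 between libraries with the same replicate number in the labels, all above 0.1, so the replicate number was tried as a block beside the unpaired main fit. WT replicate 2 with CKO replicate 3 (0.49) and WT replicate 3 with CKO replicate 2 (0.31) correlated as much, and nothing says what the numbers stand for. The model was tested on simulated data. The members and lists were chosen with earlier results of these data known. Named were all members, *Hnrnpk*, the 3 highest genes of each erythroid list, the highest globin, the 10 genes most like the members and the 2 highest markers per cell type. Some genes that this rule picks are not reported here. *Sptb*, *Ank1*, *Hba-a2*, *Hbb-bt*, *Erg*, *Tie1*, *Aco1* and the genes that overlap *Alas2* and *Hnrnpk* were named after their values or positions were seen. Alternatives covered the pseudocount (0.5 and 1), the filter, median-ratio, quantile and globin-free scaling, a globin covariate, the replicate block, limma voom on recovered reads, eBayes without trend, single globin classes, and each library left out. Replicates 2 and 3 alone were added after the values were seen.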

Additional observations from a re-analysis of the deposited data

How the results depend on the processing

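Of 133 alternative values of the log2 fold changes of the 7 genes, 122 kept the direction and the side of the threshold. The number of these genes called was 0 in all fits except limma voom on recovered reads with the replicate block, which called 1 (*Nfe2*, 0.56, adjusted *p* value 0.0202 by limma), and replicates 2 and 3 alone, which called 6 and was added after the values were seen. Those 6 were *Alas2* (0.72), *Slc4a1* (0.73), *Klf1* (0.58), *Gata1* (0.58), *Tfrc* (0.48) and *Nfe2* (0.74). Pairing by the replicate block changed no other call of the 7 genes, but moved the number of genes called among all tested from 8 to 346. That number was 14 after quantile normalization, 4 after rescaling without the globins, 94 with the globin covariate, 651 by voom with the block and 1863 in replicates 2 and 3 alone, and it lay between 1 and 23 with 1 library left out (23 without CKO replicate 1, 3 without WT replicate 2, and 1 without WT replicate 3 or either of CKO replicates 2 and 3). The cause was not tested. *Epor* was −0.043 after rescaling without the globins, which moved the median of all genes to −0.10, and −0.0025 with the globin covariate. With 1 library left out, *Epor* lay between −0.021 and 0.19 and *Klf1* between −0.045 and 0.55, in both lowest without CKO replicate 2. The members had 441 reads or more in each library.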
